A study of Rattus norvegicus with 170 samples.

Results

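The genes described here encode the proteins that cut, trim and package prohormones in the secretory granules of endocrine cells. They are *Pcsk1*, *Pcsk2*, *Pcsk1n*, *Scg5*, *Cpe*, *Pam*, *Scg2*, *Scg3*, *Chga* and *Chgb*, chosen by name as a functional family, at a time when earlier results of these data were known. All 10 were found among the 24113 genes of the table, which come from 27586 transcripts, and each of the 10 had 1 transcript in it. Whole islets of 8-week-old male wild-type Sprague Dawley rats were cultured for 48 h at 5.5 mM glucose in RPMI1640 with serum, to which the vehicle DMSO (0.1%) or GNF4877 (3 μM) had been added, the latter an inhibitor of the kinases DYRK1A and GSK3B. The islets were then dispersed, single cells were captured on Fluidigm C1 microfluidic chips, and cDNA made from the RNA of each cell was sequenced. The table holds 86 cells from DMSO-treated and 84 cells from GNF4877-treated islets, with 241604 to 2499138 mapped reads per cell and medians of 1208304 (DMSO) and 1414725 (GNF4877). The labels tie no cell to an animal, a culture or a chip, which leaves 1 sample per treatment. Effects of the chip or lane and of the treatment cannot be told apart, and no test between groups was run. Values are reads of a gene scaled to the mapped reads of its cell (RPM) and not divided by transcript length, so levels are compared between groups of cells and never between genes.

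Peptide hormones are made as inactive precursors that mature inside dense-core granules. The convertases encoded by *Pcsk1* and *Pcsk2* cut the precursors at pairs of basic residues, carboxypeptidase E (*Cpe*) removes the basic residues left at the new ends, and the enzyme encoded by *Pam* amidates peptides that end in glycine. β-cells use both convertases to make insulin from proinsulin, whereas α-cells release glucagon from proglucagon mainly with the product of *Pcsk2*. The granins (*Chga*, *Chgb*, *Scg2* and *Scg3*) are acidic proteins that help to gather hormone into granules and are themselves precursors of smaller peptides.

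A cell was called a β-cell at 1000 RPM or more of *Ins1* and under 1000 RPM of *Gcg*, and an α-cell in the reverse case. This gave 56 DMSO and 58 GNF4877 β-cells, and 5 DMSO and 18 GNF4877 α-cells. Another 22 DMSO cells and 1 GNF4877 cell held 1000 RPM or more of both hormones and were kept apart, as were 3 DMSO and 7 GNF4877 cells with neither. Of the cells with 1000 RPM or more of *Gcg*, the rule thus left out most in DMSO but only 1 in GNF4877. The part of this uneven choice in the treatment ratios of α-cells was not tested. Of 11 β-cell markers, 10 were analysed (*G6pc2* was not analysed here). The lists include *Ins1* and *Gcg*, which chose the cells, so sums are also given without them. The mean levels of the β-cell markers summed to 70750 RPM in DMSO β-cells, 47690 RPM in GNF4877 β-cells, 952 RPM in DMSO α-cells and 396 RPM in GNF4877 α-cells, and without *Ins1* to 25350, 18870, 718 and 318 RPM. The most abundant was *Ins1* in β-cells and *Slc30a8* in α-cells of both treatments. Without *Ins1*, the lower sum in GNF4877 β-cells rests on *Ins2* (10100 RPM, against 21400 RPM in DMSO β-cells). *Iapp* (4610 against 1670 RPM), *Slc2a2* (3090 against 1540 RPM), *Slc30a8* (831 against 416 RPM) and *Ero1lb* were higher in GNF4877 β-cells. *Ucn3*, *Nkx6-1*, *Pdx1* and *Mafa* were lower there. *Mafa* averaged 0.112 RPM in DMSO β-cells and had no read in GNF4877 β-cells or in either group of α-cells, and *Pdx1* averaged 38.3 and 32.2 RPM in the β-cells. The 9 α-cell markers summed to 388300 RPM in DMSO α-cells and 286500 RPM in GNF4877 α-cells, nearly all of it *Gcg*, and to 655 and 786 RPM in the β-cells, where *Gc* was the most abundant. Without *Gcg* they summed to 2593 and 2093 RPM in the α-cells and 529 and 692 RPM in the β-cells. *Loxl4* had no read in any of the 4 groups.

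Markers of other cell types were low in most of these cells but not in all. Markers of PP cells (*Ppy* and *Pyy*) summed to 2998 RPM in DMSO β-cells, 759 RPM in GNF4877 β-cells, 19.1 RPM in DMSO α-cells and 1313 RPM in GNF4877 α-cells, with *Ppy* the more abundant. The 4 δ-cell markers summed to 117, 284, 380 and 167 RPM in the same order. *Sst* led them in all groups but GNF4877 α-cells, where it was *Rbp4*, and *Ghsr* had no read. The 8 mesenchymal markers summed to 374 RPM in DMSO β-cells and 1.06 RPM in GNF4877 β-cells, led by *Col1a1* in DMSO and *Pdgfra* in GNF4877, and to 2.44 RPM (*Acta2*) and 129 RPM (*Col3a1*) in the α-cells. Of the acinar markers, *Cel* and *Cpb1* had no read in any of the 4 groups. The 7 endothelial markers stayed at or under 4.34 RPM in all of them. Of these genes, *Cdh5*, *Pecam1* and *Plvap* were the most abundant in DMSO β-cells, GNF4877 β-cells and GNF4877 α-cells, the DMSO α-cells had no read of any, and *Kdr* had no read in the 4 groups. The 6 duct markers, led by *Krt7*, summed to 189, 235, 104 and 338 RPM. The 7 immune markers summed to 5.37, 61.5, 0.975 and 11.2 RPM, led by *Cd74* except in DMSO α-cells, and *Itgam* had no read. The part of these cells in the results was not tested, but leaving out cells with 1000 RPM or more of *Sst* or *Ppy* (3 β-cells of each treatment, 1 DMSO and 2 GNF4877 α-cells) turned the direction of 1 result, the treatment difference of *Pcsk1* in α-cells.

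Some cells stood apart. In 7 cells only 2.65% to 18.9% of the mapped reads fell on the listed transcripts, against 76.4% to 99.0% in all the others. Among them were the β-cells DMSO_48, DMSO_73, DMSO_80 and GNF4877_2, which included the lowest β-cell of each treatment in *Scg2*, *Scg3*, *Scg5* and *Pam*. Without these cells, a choice made after the data were seen, the lowest *Cpe* level among DMSO β-cells was 726 RPM in place of 13.6 RPM and the lowest *Scg2* level 1768 RPM in place of 21.1 RPM, while the medians moved little (*Cpe* 2694 RPM in place of 2562 RPM). The β-cell GNF4877_78, with 661387 mapped reads and 184300 RPM of *Ins1*, was the highest of all cells for *Cpe* (20300 RPM), *Pcsk2* (8207 RPM), *Scg5* (4410 RPM) and *Chga* (3165 RPM), so ratios of means that rest on it are also given without it.

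α- and β-cells differed most in *Pcsk1*, which encodes prohormone convertase 1 and belonged to the β-cells. In DMSO β-cells it ranged from 0 to 1563 RPM with a median of 193 RPM and a mean of 265 RPM. In GNF4877 β-cells it ranged from 0 to 1274 RPM with a median of 162 RPM and a mean of 256 RPM. The 5 DMSO α-cells held 24.4, 0.782, 0, 2.96 and 1.39 RPM (DMSO_33, DMSO_67, DMSO_89, DMSO_90 and DMSO_94). So most β-cells of both treatments lay above these 5, and the groups overlapped only through β-cells with little or no *Pcsk1*. Of the 18 GNF4877 α-cells, 16 had no *Pcsk1* read, GNF4877_34 held 0.705 RPM and GNF4877_27 held 81.9 RPM. A read was present in 54 of 56 DMSO β-cells (96.4%, exact Clopper-Pearson 95% interval 87.7% to 99.6%) and 54 of 58 GNF4877 β-cells (93.1%, 83.3% to 98.1%), but in 2 of 18 GNF4877 α-cells (11.1%, 1.38% to 34.7%). Of the DMSO α-cells 4 of 5 had a read (80%, 28.4% to 99.5%), at the low levels above. These intervals cover counting error only. Without the cells with few listed reads, all 53 DMSO β-cells had a *Pcsk1* read and 4 of 57 GNF4877 β-cells had none (GNF4877_18, GNF4877_54, GNF4877_60 and GNF4877_81, named after their values were seen). Mean *Pcsk1* was 38.5-fold higher in β- than in α-cells of DMSO-treated and 46-fold higher in those of GNF4877-treated islets, with 1 RPM added to each mean. With 10 RPM added the log2 ratios of α- to β-cells were -4.11 and -4.19. Both folds also rest on 1 α-cell: the log2 ratio of α- to β-cells moved from -5.27 to -6.86 without DMSO_33 and from -5.52 to -7.95 without GNF4877_27. The 2 treatments had nearly the same mean in β-cells.

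*Pcsk2*, which encodes prohormone convertase 2, averaged higher in α- than in β-cells and was read in every cell of both classes. The 5 DMSO α-cells, in the order above, held 1919, 437, 3653, 2390 and 1981 RPM, and the 18 GNF4877 α-cells 432 to 5679 RPM with a median of 1362 RPM. DMSO β-cells held 3.76 to 2388 RPM with a median of 693 RPM, and GNF4877 β-cells 9.84 to 8207 RPM with a median of 993 RPM. In DMSO, 4 of 5 α-cells lay above the β-cell median and in GNF4877 11 of 18 did, and the ranges overlapped in both treatments. On the log2 scale, the ratio of α- to β-cells, log2 of (mean RPM + 1) over (mean RPM + 1), was 1.41 in DMSO and 0.71 in GNF4877, where it was 0.88 without GNF4877_78. Within β-cells the mean was 1149 RPM in GNF4877 and 778 RPM in DMSO (log2 ratio 0.56, or 0.40 without GNF4877_78), and 38 of 58 GNF4877 β-cells lay above the DMSO median. For α-cells the ratio of GNF4877 to DMSO was -0.14 and became 0.17 when 1 cell was left out.

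The balance between the convertases was read within each cell as the share of *Pcsk1* in the sum of *Pcsk1* and *Pcsk2* reads, a number that does not change with the scaling of a cell but, without transcript lengths, only compares groups. Its median was 22% in DMSO β-cells (0 to 73%) and 16.9% in GNF4877 β-cells (0 to 98.5%). It was 0.124% in DMSO α-cells (0 to 1.26%) and 0 in GNF4877 α-cells (0 to 14.5%). A share of 5% or more was found in 51 of 56 DMSO and 48 of 58 GNF4877 β-cells, in 0 of 5 DMSO α-cells and in 1 of 18 GNF4877 α-cells, so the balance was low in all α-cells but 1 and higher in most β-cells. That α-cell was GNF4877_27, which also had the most *Ins1* of the GNF4877 α-cells (813 RPM). The RPM of *Pcsk1* exceeded that of *Pcsk2* in 3 DMSO and 4 GNF4877 β-cells. Without transcript lengths this compares the groups and does not say which transcript was more abundant. The highest shares, named after their values were seen, were those of GNF4877_25, with 629 RPM of *Pcsk1* and 9.84 RPM of *Pcsk2*, and GNF4877_61, with 576 and 38.1 RPM.

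**Figure D1:**
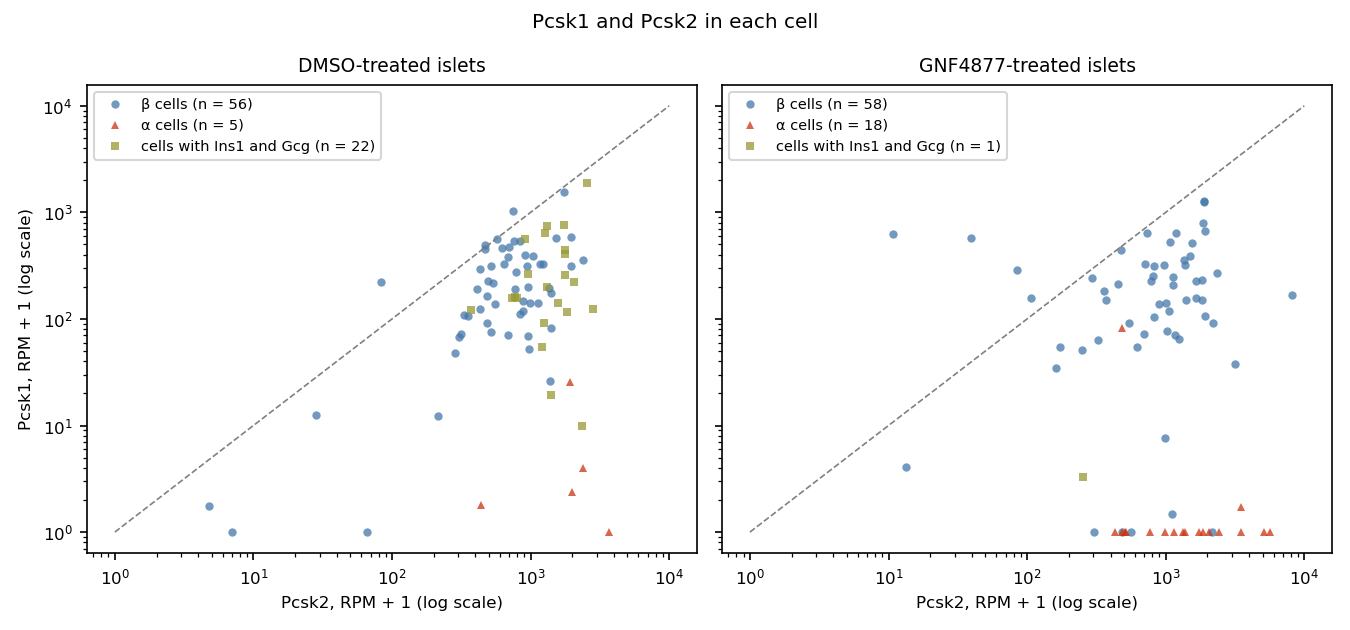
Each point is a cell, with *Pcsk2* (RPM + 1, log scale) on the horizontal and *Pcsk1* (RPM + 1, log scale) on the vertical axis, for DMSO-treated (left) and GNF4877-treated islets (right). The dashed line marks equal RPM, which without transcript lengths is not equal transcript number. Circles are β-cells (n = 56 and 58), triangles α-cells (n = 5 and 18) and squares cells with both hormones (n = 22 and 1). The α-cells lie along the bottom, at 0 to 24.4 RPM of *Pcsk1* in DMSO and 0 to 81.9 RPM in GNF4877.

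The convertases have dedicated binding partners. *Pcsk1n* encodes proSAAS, an inhibitor of prohormone convertase 1, and had the widest treatment difference of the members in β-cells when 1 RPM was added to the means. With 10 RPM added its log2 ratio was -0.65 and that of *Pam* -0.72. It ranged from 0 to 43.5 RPM with a median of 8.60 RPM in DMSO β-cells and from 0 to 21.3 RPM with a median of 1.10 RPM in GNF4877 β-cells. The DMSO α-cells, in the order above, held 27.9, 10.95, 32.2, 20.7 and 26.4 RPM, and the GNF4877 α-cells 0 to 33.9 RPM with a median of 5.66 RPM. In both classes the GNF4877 cells were shifted down but still overlapped the DMSO cells: 53 of 58 GNF4877 β-cells and 17 of 18 GNF4877 α-cells lay below the DMSO median of their class. With 1 RPM added, the DMSO mean was 2.78-fold higher in β-cells (10.75 against 3.23 RPM, log2 ratio -1.47) and 2.74-fold higher in α-cells (23.6 against 8.01 RPM, log2 ratio -1.45). With 10 RPM added the log2 ratio in α-cells was -0.90, under 2-fold as in β-cells. The DMSO β-cells held 737 *Pcsk1n* reads in all (exact Poisson 95% interval 685 to 792) and the GNF4877 β-cells 239 (210 to 271), again for counting error only.

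A *Pcsk1n* read was present in 50 of 56 DMSO β-cells (89.3%, 78.1% to 96.0%) and 37 of 58 GNF4877 β-cells (63.8%, 50.1% to 76%), although the median GNF4877 β-cell was sequenced more deeply (1420597 against 1182925 mapped reads). After each cell was thinned to 100000 reads, which kept 54 DMSO and 57 GNF4877 β-cells, the shares were 57.4% and 14%. In α-cells they were 5 of 5 and 15 of 18 before and 100% and 38.9% after thinning. GNF4877 cells also had fewer genes with a read, with medians of 7059 against 8809 in β-cells and 5864 against 7026 in α-cells. The part of this gap in the *Pcsk1n* difference was not tested. In either treatment *Pcsk1n* averaged higher in α- than in β-cells, with log2 ratios of 1.07 in DMSO and 1.09 in GNF4877. Neither ratio stayed at 2-fold under all settings: with 10 RPM added they were 0.70 and 0.44, the GNF4877 ratio was 0.82 without GNF4877_9, and the DMSO ratio was 0.94 without DMSO_89 and 0.67 over the reads on listed transcripts, a scaling added after the data were seen.

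*Scg5* encodes 7B2, a chaperone that prohormone convertase 2 needs to become active. DMSO β-cells held 1.504 to 1605 RPM with a median of 793 RPM, and GNF4877 β-cells 3.08 to 4410 RPM with a median of 428 RPM. In α-cells the 5 DMSO values were 1034, 626, 3136, 891 and 883 RPM, and the GNF4877 values ran from 188 to 4013 RPM with a median of 697 RPM. Thus 50 of 58 GNF4877 β-cells lay below the DMSO median, inside the DMSO range. The log2 ratio of means was -0.49 in β-cells, or -0.68 without GNF4877_78, and that of medians -0.89. α-cells had the higher means, at log2 ratios over β-cells of 0.75 in DMSO and 0.93 in GNF4877. The DMSO ratio rests on DMSO_89 (0.13 without it, and 0.17 from medians), and the GNF4877 ratio was 1.11 without GNF4877_78. For α-cells the ratio of GNF4877 to DMSO was -0.31, but it became 0.30 when 1 cell was left out.

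After cleavage, carboxypeptidase E and the amidating enzyme finish the peptides. *Cpe* was read in every β- and α-cell. In DMSO β-cells it ranged from 13.6 to 5679 RPM with a median of 2562 RPM, and in GNF4877 β-cells from 14.8 to 20300 RPM with a median of 1303 RPM. The GNF4877 β-cells were mostly the lower ones, with 52 of 58 below the DMSO median. The log2 ratio of means, -0.59, became -0.89 without GNF4877_78, and the ratio of medians was -0.97. The 5 DMSO α-cells held 1575, 1722, 2716, 1350 and 1466 RPM and the GNF4877 α-cells 208 to 5870 RPM with a median of 1774 RPM. So in α-cells the treatments had similar levels (log2 ratio 0.14, but -0.07 over reads outside the hormone genes). α-cells averaged below β-cells in DMSO (log2 ratio -0.59), whereas in GNF4877 the ratio was 0.14, 0.44 without GNF4877_78 and -0.04 without GNF4877_77. Hormone genes took a median of 40.9% of reads in DMSO α-cells and 5.03% in DMSO β-cells. By construction this lowers the RPM of other genes in α-cells. Over reads outside the hormone genes, the DMSO class ratio of *Scg3*, for example, moved from -0.39 to 0.16. The DMSO class ratios of *Cpe*, *Pam* and *Scg2* carry the same scaling.

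*Pam* was lower in GNF4877 cells of both classes. It ranged from 12.03 to 5611 RPM with a median of 1118 RPM in DMSO β-cells and from 3.08 to 6358 RPM with a median of 668 RPM in GNF4877 β-cells. The 5 DMSO α-cells held 1590, 570, 737, 1161 and 751 RPM, and the GNF4877 α-cells 0 to 1860 RPM with a median of 154 RPM. In α-cells 16 of 18 GNF4877 cells lay below the DMSO median, and 2 of the 18, GNF4877_52 and GNF4877_9, had no *Pam* read, while GNF4877_34 was above all 5 DMSO cells. In β-cells 46 of 58 lay below the DMSO median. The log2 ratio of GNF4877 to DMSO was -0.73 in β-cells and -1.68 in α-cells, where the DMSO mean was 3.21-fold higher. The ratio of α- to β-cells was -0.55 in DMSO and -1.51 in GNF4877, with the scaling by hormone reads given for *Cpe*. Whether the treatment difference differs between the classes was not tested.

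*Chgb* (chromogranin B) averaged higher in α- than in β-cells, above all in DMSO. Its 5 DMSO α-cells held 3977, 559, 2903, 1794 and 1127 RPM, all above the DMSO β-cell median of 144 RPM (0.750 to 2481 RPM). GNF4877 α-cells ranged from 6.33 to 2711 RPM with a median of 275 RPM, and GNF4877 β-cells from 1.06 to 3114 RPM with a median of 95.8 RPM. The mean of α-cells was 6.87-fold that of β-cells in DMSO (log2 ratio 2.78) and 1.52-fold in GNF4877 (0.60). The GNF4877 ratio was 1.51 from medians, past 2-fold, and 0.18 from means without GNF4877_34. Within α-cells the DMSO mean was 4.10-fold higher (log2 ratio -2.04), and 17 of 18 GNF4877 cells lay below the DMSO median. The highest DMSO α-cell, DMSO_33, also held 1672 RPM of *Sst*. Leaving out cells with *Sst* or *Ppy* gave a log2 ratio of -1.59. In β-cells the direction depended on the average taken: the ratio was 0.14 from means, -0.59 from medians and -0.09 when 1 cell was left out.

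*Chga* (chromogranin A) also averaged higher in α- than in β-cells. The 5 DMSO α-cells held 565, 290, 799, 654 and 234 RPM, and DMSO β-cells 0 to 1545 RPM with a median of 129 RPM. In GNF4877 the α-cells ranged from 0 to 1244 RPM with a median of 139 RPM, and the β-cells from 0 to 3165 RPM with a median of 93.2 RPM. All 5 DMSO α-cells were above the DMSO β-cell median, inside the β-cell range. The log2 ratio of α- to β-cells was 1.52 in DMSO and 0.61 in GNF4877, or 1.06 without GNF4877_78. The ratio of GNF4877 to DMSO in α-cells was -0.79 from means and -2.02 from medians, with 14 of 18 GNF4877 cells below the DMSO median. In β-cells it was 0.12 from means, -0.33 without GNF4877_78 and -0.46 from medians. A *Chga* read was present in 53 of 56 DMSO and 53 of 58 GNF4877 β-cells.

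*Scg2*, secretogranin II, went the other way between the classes. This gene, the precursor of secretoneurin, ranged from 21.1 to 16100 RPM with a median of 6217 RPM in DMSO β-cells and from 37.0 to 22030 RPM with a median of 5182 RPM in GNF4877 β-cells. The DMSO α-cells held 3686, 3640, 4923, 3778 and 1208 RPM, and the GNF4877 α-cells 50.5 to 4672 RPM with a median of 2109 RPM. All α-cells of both treatments thus lay below the β-cell median of their treatment. The log2 ratio of α- to β-cells was -0.83 in DMSO and -1.34 in GNF4877. Over reads outside the hormone genes the GNF4877 ratio no longer passed 2-fold, and the DMSO ratio carries the same scaling by hormone reads. The ratio of GNF4877 to DMSO was -0.54 in α-cells and -0.03 in β-cells, where it was 0.08 with thresholds of 100 RPM for *Ins1* and *Gcg*.

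*Scg3*, whose product binds chromogranin A and cholesterol in the granule membrane, was the granin with higher levels in GNF4877 cells of both classes. Its median was 1009 RPM in DMSO β-cells (9.02 to 2882 RPM) and 1248 RPM in GNF4877 β-cells (6.17 to 3703 RPM). In α-cells the 5 DMSO values were 535, 631, 1197, 1155 and 399 RPM and the GNF4877 values 261 to 2358 RPM with a median of 1104 RPM. The ranges overlapped widely, with 33 of 58 GNF4877 β-cells and 14 of 18 GNF4877 α-cells above the DMSO median of their class. The log2 ratio of GNF4877 to DMSO was 0.42 in β-cells and 0.62 in α-cells. The ratio of α- to β-cells was -0.39 in DMSO and -0.19 in GNF4877, but 0.16 and 0.24 over reads outside the hormone genes.

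**Figure D2:**
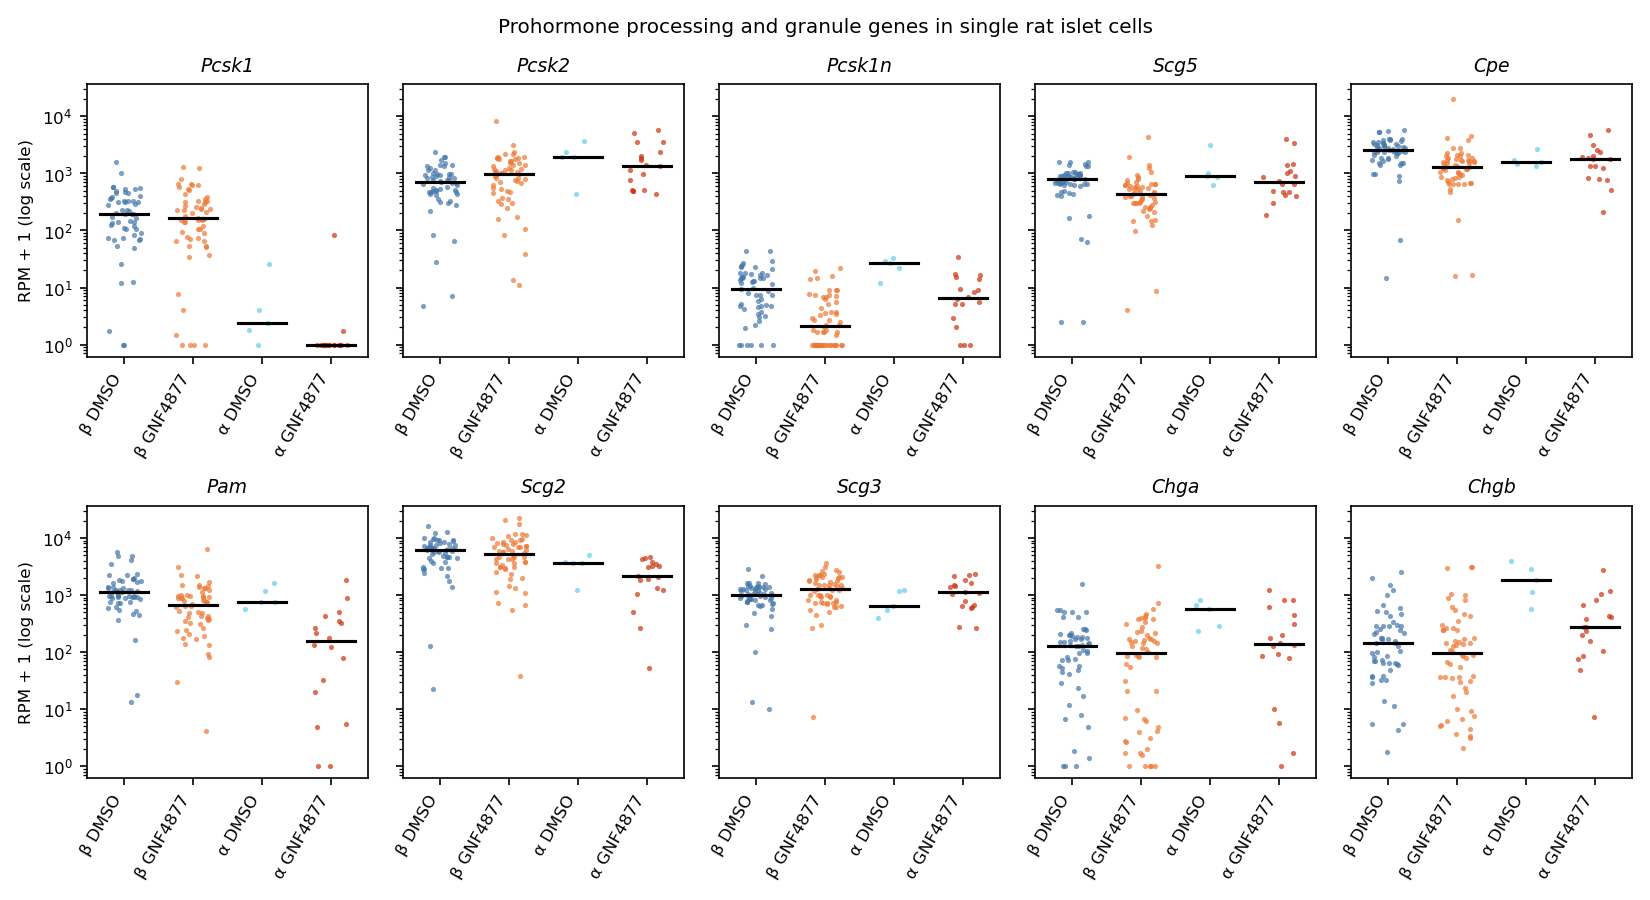
Each panel shows 1 gene and each point 1 cell, with RPM + 1 on a log scale on the vertical axis and the group on the horizontal axis (β DMSO n = 56, β GNF4877 n = 58, α DMSO n = 5, α GNF4877 n = 18); bars are medians. *Pcsk1* has medians of 193 and 162 RPM in β-cells against 1.39 and 0 RPM in α-cells, and *Pcsk1n* medians of 8.60 against 1.10 RPM in β-cells and 26.4 against 5.66 RPM in α-cells.

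Counts over the 10 genes are read against all genes with a mean of 1 RPM or more in either group compared, a filter that all 10 passed in each comparison, and a difference is counted at 2-fold or more. Comparisons of treatments and of classes share cells, for example the DMSO β-cells, so they are given side by side only. Between α- and β-cells of DMSO-treated islets, 4 members were higher in α-cells (*Pcsk2*, *Pcsk1n*, *Chga* and *Chgb*) and 1 was lower (*Pcsk1*), where 12.5% of 13632 genes were higher and 47.2% lower. The median log2 ratio was 0.18 for the members and -0.88 for all genes, but -0.20 and 0 from medians over cells. With 69.7% of values without a read, genes with a median of 0 RPM in both groups get a ratio of 0 by construction. The all-gene median from medians over cells was 0 in every comparison, so it is no background for the members. In GNF4877, 1 member was higher (*Pcsk1n*) and 3 were lower (*Pcsk1*, *Pam* and *Scg2*), where 14% of 13418 genes were higher and 34.4% lower, with medians of 0.37 and -0.45 (0.45 and 0 from medians over cells). Hormone genes took a median of 40.9% of the reads of DMSO α-cells and 5.03% of those of DMSO β-cells (27.5% and 3.73% in GNF4877). With RPM taken over reads outside these genes, the all-gene median moved from -0.88 to -0.44 in DMSO and from -0.45 to -0.13 in GNF4877. At this scaling 5 members were higher and 1 lower in DMSO, against 19.7% and 39.5% of all genes. In GNF4877, 4 were higher and 2 lower, against 18.5% and 29.1% of all genes. Without GNF4877_78, a choice made after the data were seen, 3 members were higher in GNF4877 (*Scg5* and *Chga* in addition) and 3 lower. Of all genes, 14.1% were then higher and 34.4% lower. Over all settings 3 to 5 members were higher in DMSO (7.29% to 19.7% of all genes) and 0 to 4 in GNF4877 (3.29% to 18.5%). The 4 in GNF4877 came from reads outside the hormone genes or from mean log values, where 3.29% of all genes were higher. With 10 RPM added 0 members were higher there, against 6.04% of all genes.

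Between treatments in β-cells, no member was higher by 2-fold and only *Pcsk1n* was lower (0 members with 10 RPM added to the means), where 11.3% of 13868 genes were higher and 18.3% lower. A count of 1 in 10 is near this background and is not a result about the family. The median was -0.04 for the members and -0.09 for all genes, but -0.52 and 0 from medians over cells and -0.60 and -0.39 from mean log values. The all-gene 0 from medians is again no background for the members. In α-cells, 0 members were higher and 3 were lower (*Pcsk1n*, *Pam* and *Chgb*), where 35.6% of 12508 genes were higher and 23.9% lower. The share of lower members is close to that of all genes. The medians were -0.43 and 0.30, or -0.66 and 0.07 over reads outside the hormone genes, and the DMSO group here is 5 cells. From medians over cells or from mean log values 5 members were lower in α-cells, *Pcsk1* and *Chga* in addition. From medians 8.43% of all genes were higher and 27% lower, with an all-gene median of 0, no background here either. From mean log values 10.2% were higher and 29.5% lower, with a median of -0.37. The number of lower members was 4 with hormone thresholds of 100 or 10000 RPM (29% and 26.1% of all genes) and 2 with 10 RPM added (13.2%). Without the cells with *Sst* or *Ppy*, 1 was higher and 4 were lower (39.6% and 22.1% of all genes). *Pcsk1*, the higher one there, had a ratio of 1.43 in place of -0.30. The cells left out include DMSO_33, which held most of the *Pcsk1* of the DMSO α-cells.

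**Figure D3:**
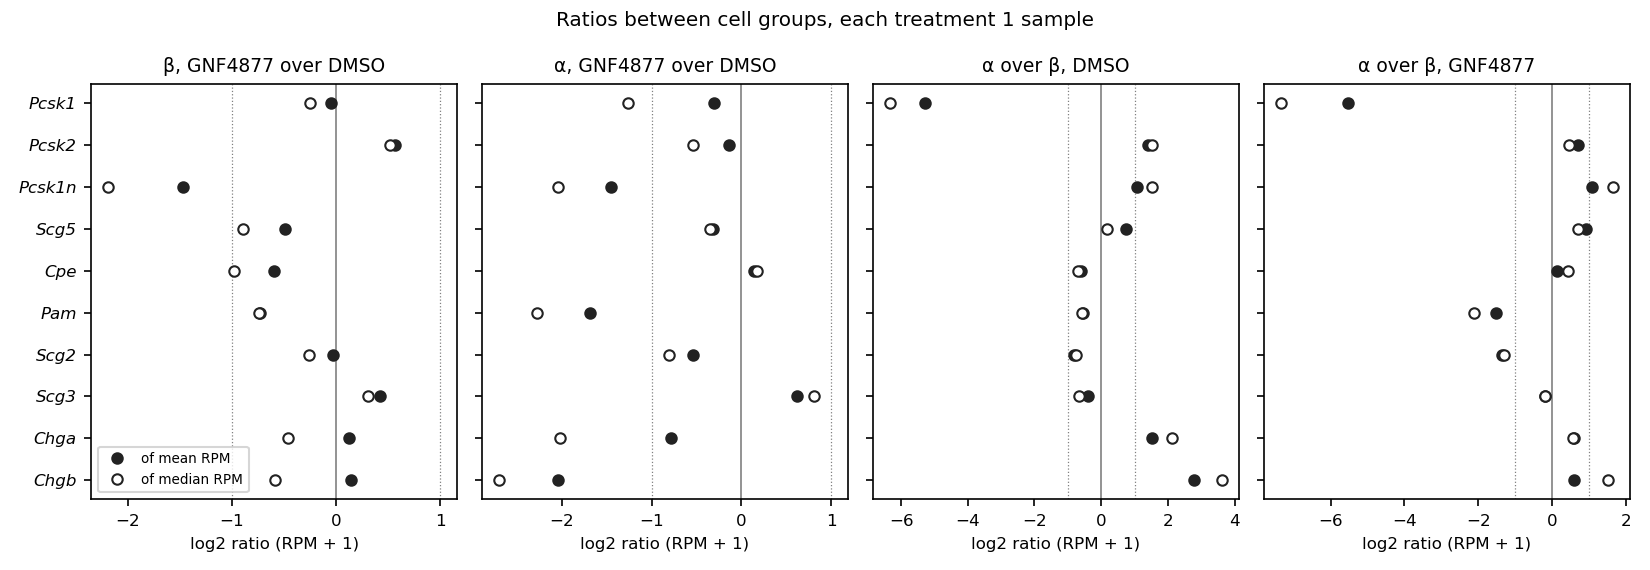
Log2 ratios of the 10 genes (rows), from left to right for GNF4877 over DMSO in β-cells (n = 58 and 56) and in α-cells (n = 18 and 5) and for α- over β-cells in DMSO (n = 5 and 56) and in GNF4877 (n = 18 and 58), with 1 RPM added; filled circles are ratios of means, open circles ratios of medians, and dotted lines mark 2-fold. *Pcsk1n* lies left of the 2-fold line in both treatment panels (-1.47 and -1.45), *Pcsk1* far left in both class panels (-5.27 and -5.52), and *Chga* and *Chgb* change sign in β-cells between means and medians.

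*Ccnb1* encodes cyclin B1, a cyclin of the G2 and M phases, and 10 RPM or more of it was found in 10 of 58 GNF4877 β-cells and 1 of 56 DMSO β-cells. *Pcsk1* ranged from 150 to 629 RPM with a median of 248 RPM in these 10 GNF4877 cells and from 0 to 1274 RPM with a median of 145 RPM in the other 48. Every one of the 10 thus lay above the median of the 48, while their means were close (284.5 and 250 RPM, log2 ratio 0.19, and -0.25 when any *Ccnb1* read counted). *Pcsk2* ranged from 9.84 to 8207 RPM in the 10 cells with a median of 1255 RPM, against 12.3 to 3185 RPM with a median of 940 RPM. The median of *Scg3* was 1547 RPM against 1086 RPM, and that of *Chga* 190 RPM against 82.1 RPM. *Scg2* was lower, with medians of 3496 RPM (654 to 8119 RPM) and 5564 RPM (37.0 to 22030 RPM). *Cpe* had nearly equal medians of 1333 and 1303 RPM, and *Scg5* and *Pam* had lower ones (380 against 460 RPM and 561 against 719 RPM).

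By means, 2 of the 10 members were higher by 2-fold in the cells with *Ccnb1* (*Cpe*, log2 ratio 1.16, and *Chga*, 1.8, or 1.2 from medians) and 0 were lower, where 16.7% of 13089 genes were higher and 26.3% lower. The other settings gave 0 to 3 higher and 0 or 1 lower, where 8.77% to 18.4% of all genes were higher and 4.9% to 28.9% lower. The median was 0.51 for the members and -0.12 for all genes. Without GNF4877_78, a choice made after the data were seen, 0 members passed 2-fold in either direction, *Cpe* had a ratio of -0.10, *Chga* of 0.35 and *Scg5* of -0.44 in place of 0.61, and the members' median was 0.00382. The directions of *Pcsk1*, *Pcsk2*, *Pcsk1n*, *Scg5*, *Cpe*, *Pam*, *Scg3* and *Chgb* in this comparison each turned under at least 1 other setting. The single DMSO β-cell with *Ccnb1*, DMSO_46 (49.4 RPM), held 11.5 RPM of *Pcsk1*, 27.3 RPM of *Pcsk2* and no *Chga* read. It also held 3470 RPM of *Col1a1*, a collagen gene of mesenchymal cells.

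DMSO cells with both *Ins1* and *Gcg* had, by their medians, *Pcsk1* near the level of β-cells and *Pcsk2* between the classes. In these 22 cells *Pcsk1* ranged from 8.86 to 1881 RPM with a median of 178 RPM, close to the β-cell median of 193 RPM. *Pcsk2* ranged from 370 to 2802 RPM with a median of 1356 RPM, between the medians of β-cells (693 RPM) and α-cells (1981 RPM). *Pcsk1n* (median 16.9 RPM), *Scg5* (943 RPM), *Chga* (353 RPM) and *Chgb* (707 RPM) also had medians above those of DMSO β-cells. Of the 22 cells, 5 held 1000 RPM or more of *Sst* or *Ppy*, and these had 723 to 2552 RPM of *Chgb*. Their part in the medians was not tested. The submitters kept only ports in which microscopy had shown 1 cell. No further step against doublets was taken here, and whether 1 or 2 cells gave these profiles was not tested. The median of mapped reads was 1355291 in them, 1182925 in β-cells and 961560 in α-cells. Their median count of genes with a read was 9093, against 8809 in β-cells and 7026 in α-cells. The single GNF4877 cell with both hormones, GNF4877_31 (40720 RPM of *Ins1* and 37010 RPM of *Gcg*), was low in *Pcsk1* (2.29 RPM) and *Pcsk2* (251 RPM), and held 1816 RPM of *Chgb* and 425 RPM of *Ccnb1*.

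Among β-cells the members varied together only loosely. Over the 53 DMSO β-cells without the cells of few listed reads, Spearman's rho of the 45 pairs of members had a median of 0.27 and ran from -0.13 to 0.50. Over the 57 GNF4877 β-cells the median was 0.16, from -0.37 to 0.52. The cells of a treatment come from 1 sample and share a scaling to total reads, so these are descriptions. A rho of 0.3 or more was found for 18 pairs in DMSO and 9 in GNF4877. *Pcsk1* and *Cpe* had 0.48 in DMSO and 0.36 in GNF4877, *Pcsk2* and *Scg3* 0.31 and 0.52, and *Pam* and *Scg3* 0.50 and 0.15. *Scg2* and *Chga* had 0.27 in DMSO and -0.37 in GNF4877. With *Ins1*, rho was 0.70 in DMSO and 0.29 in GNF4877 for *Pcsk1*, 0.53 and 0.46 for *Scg5*, 0.42 in both for *Cpe*, and 0.22 and -0.30 for *Scg2*. With mapped reads the strongest was -0.34, for *Cpe* in GNF4877.

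The mean log2(RPM + 1) of the 10 members was compared with 7402 other genes that averaged 10 RPM or more in β-cells of both treatments. The 5 with the highest rho, taking the lower of the 2 treatments, were *Slc38a5*, an amino acid transporter (0.75 over 56 DMSO and 0.66 over 58 GNF4877 β-cells), *Iapp*, the precursor of amylin (0.72 and 0.57), *Ins1* (0.56 and 0.66), *Gnas*, which encodes the stimulatory G protein α subunit (0.65 and 0.56), and *Slc2a2*, the glucose transporter of rodent β-cells (0.63 and 0.54). Without the cells of few listed reads the values were 0.71 and 0.64 for *Slc38a5*, 0.67 and 0.55 for *Iapp*, 0.59 and 0.54 for *Gnas*, 0.57 and 0.53 for *Slc2a2* and 0.50 and 0.64 for *Ins1*.

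Promoter sequences of 8 of the 10 members were matched by symbol in RefSeq (build GRCr8, 250 bases before to 50 bases after the start of the gene), and those of *Pcsk1* and *Chga* were not analysed here. Both strands were searched for TGACGTCA (the cAMP response element), TGACG (its half-site, which lies within TGACGTCA) and TATAAA, a core promoter element. TGACGTCA was in 1 of the 8, *Scg2*, against 1.83% of all 33469 promoters. TGACG was in 6 of the 8 (*Pcsk2*, *Scg5*, *Cpe*, *Pam*, *Scg2* and *Scg3*) against 21.2%, and TATAAA in 0 of the 8 against 14.2%. Of the 8 promoters, 7 had more GC than the median of all promoters (51.7%), on which such matches also depend, so a match is a description of these letters only. Shown 5′ to 3′ on the strand of the gene are *Pcsk1n* (chrX:17255356-17255655, minus strand, 62% GC), *Pam* (chr9:105570118-105570417, plus strand, 59.3% GC) and *Chgb* (chr3:140496462-140496761, plus strand, 56.7% GC), the members that were lower by 2-fold in GNF4877 α-cells, and *Scg2* (chr9:88256817-88257116, minus strand, 50.0% GC), which holds the full element. Capitals mark TGACG or TGACGTCA, with the start of the match at -105 in *Pam* and -123 in *Scg2* from the gene start, and *Pcsk1n* and *Chgb* hold none of the 3 motifs in this window.
Pcsk1n: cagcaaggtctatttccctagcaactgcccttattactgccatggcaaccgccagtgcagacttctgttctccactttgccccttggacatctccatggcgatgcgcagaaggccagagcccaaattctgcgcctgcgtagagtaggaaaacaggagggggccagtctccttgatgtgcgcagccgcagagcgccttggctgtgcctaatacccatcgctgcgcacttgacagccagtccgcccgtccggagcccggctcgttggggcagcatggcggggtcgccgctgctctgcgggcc
Pam: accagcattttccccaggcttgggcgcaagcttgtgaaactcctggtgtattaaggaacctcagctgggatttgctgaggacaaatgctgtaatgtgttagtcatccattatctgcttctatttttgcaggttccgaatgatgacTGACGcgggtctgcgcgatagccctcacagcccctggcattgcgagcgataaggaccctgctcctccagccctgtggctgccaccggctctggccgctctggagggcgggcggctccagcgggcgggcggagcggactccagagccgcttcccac
Chgb: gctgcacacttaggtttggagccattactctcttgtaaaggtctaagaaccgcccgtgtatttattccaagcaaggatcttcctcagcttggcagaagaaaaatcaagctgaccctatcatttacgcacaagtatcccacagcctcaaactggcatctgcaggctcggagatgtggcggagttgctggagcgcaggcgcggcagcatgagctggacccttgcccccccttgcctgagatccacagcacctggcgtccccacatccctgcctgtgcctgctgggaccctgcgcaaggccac
Scg2: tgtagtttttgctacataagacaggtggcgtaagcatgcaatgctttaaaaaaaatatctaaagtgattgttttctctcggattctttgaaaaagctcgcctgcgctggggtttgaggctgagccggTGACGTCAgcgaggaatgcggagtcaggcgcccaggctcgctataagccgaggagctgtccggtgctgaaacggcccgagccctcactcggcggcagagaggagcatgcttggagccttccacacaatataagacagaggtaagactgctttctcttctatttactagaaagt

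Other genes of prohormone maturation were followed in 5 lists. In β-cells (GNF4877 over DMSO), 3 of 15 genes of prohormone folding and translocation were higher by 2-fold and 0 lower (median log2 ratio 0.14), and for 16 genes of the granule membrane and its ion handling the numbers were 1 higher and 4 lower (-0.14). Of 12 genes of sorting and granule biogenesis (15 were listed, and *Hid1*, *Ccdc186* and *Ier3ip1* were not analysed here) 0 were higher and 3 lower (-0.23). Of 13 other convertases and trimming enzymes (14 listed, *Qpct* not analysed here) 2 were higher and 2 lower (0.19), and of 6 other granule cargo genes past the filter, of 7, 0 were higher and 2 lower (-0.07). All genes had 11.3% higher and 18.3% lower with a median of -0.09. Among genes of these lists with a mean of 10 RPM or more in either group, the 3 furthest from 0 in each direction were *Sytl4*, which tethers insulin granules (230 RPM in GNF4877 and 93.8 RPM in DMSO, log2 ratio 1.29), *Pdia3*, a disulfide isomerase (2682 and 1107 RPM, 1.28), and the oxidase *Ero1l* (251 and 114 RPM, 1.13), and *Bsn*, the scaffold protein bassoon (16.1 and 72.2 RPM, -2.09), *Ptprn2*, the granule protein phogrin (52.1 and 174 RPM, -1.72), and *Rab3a*, a small GTPase of exocytosis (27.6 and 89.98 RPM, -1.67). For *Ero1l* the medians were in the other order (41.2 RPM in GNF4877 and 83.5 RPM in DMSO).

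In α-cells (GNF4877 over DMSO) 7 of the 15 folding genes were higher and 0 lower (median 0.73), while the numbers were 5 and 5 of 16 for the granule membrane (0.11), 2 and 4 of 12 for sorting (-0.42), 4 and 1 of 10 past the filter for the other enzymes (0.68), and 0 and 1 of 5 for the other cargo (0.17). All genes had 35.6% and 23.9% with a median of 0.30. Between classes, where all genes had 12.5% higher and 47.2% lower in DMSO (median -0.88) and 14% and 34.4% in GNF4877 (-0.45), α-cells of DMSO-treated islets had 0 higher and 10 lower of 15 folding genes (-1.48), 0 and 8 of 16 granule membrane genes (-0.92), 1 and 5 of 12 sorting genes (-0.54), 1 and 6 of 11 other enzymes (-1.79), and 2 and 1 of 5 cargo genes (0.97). In GNF4877 the numbers were 0 and 6 (-0.96), 1 and 6 (-0.56), 0 and 6 (-1.27), 1 and 5 of 12 (-0.83), and 2 and 1 of 6 (0.41). The genes furthest toward α-cells in GNF4877 were *Clu*, the chaperone clusterin (13260 RPM in α- and 3009 RPM in β-cells, log2 ratio 2.14), *Ctsl1*, cathepsin L (3380 and 902 RPM, 1.91), and *Ptprn2* (122 and 52.1 RPM, 1.22). In DMSO *Clu* had a ratio of 1.95, while *Ctsl1* (-0.98) and *Ptprn2* (-1.28) were lower in α-cells. Furthest toward β-cells were *Sytl4* (3.25 RPM in α- and 230 RPM in β-cells, -5.77), the sorting receptor *Sorl1* (1.75 and 98.2 RPM, -5.17) and *Ero1lb*, the pancreatic form of the oxidase (4.39 and 74.02 RPM, -3.80).

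In GNF4877 β-cells with 10 RPM or more of *Ccnb1* against those with less, 1 sorting gene was higher and 7 of 12 lower by means (median log2 ratio -1.06), although only *Ica1* and *Arfip1* of the 7 also had the lower median, against 4 and 3 of 12 for the other enzymes (0.44), 1 and 2 of 16 for the granule membrane (-0.12), 0 and 1 of 15 for folding (0.02), and 0 and 0 of 6 for the other cargo (0.32). All genes had 16.7% higher and 26.3% lower with a median of -0.12. The 10 prohormone and hormone genes are listed for completeness and were left out of the genes named above, since *Ins1* and *Gcg* chose the classes. Between treatments in β-cells, *Iapp* (log2 ratio 1.46), *Sst* (1.38), *Pyy* (-6.26) and *Ppy* (-1.93) would otherwise have been among them, but for *Sst*, *Pyy* and *Ppy* a few cells made the means, and the medians were at or under 2.84 RPM in both treatments. Their medians were -0.43 in β-cells and -0.44 in α-cells for GNF4877 over DMSO, -5.37 and -4.05 for α- over β-cells in DMSO and GNF4877, and -0.52 for the split by *Ccnb1*.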

How the data were processed

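Single 50 bp reads of each cell were aligned with BWA 0.5.9 after base calling with CASAVA 1.8.2 and handled with SAMtools 0.1.19, versions given in the submitters' processing notes. The target of the alignment is given as the mouse transcriptome, although the transcripts of the table carry rat RefSeq names. The authors kept cells with more than 100000 mapped reads from ports in which microscopy had shown 1 cell, and deposited RPM values, in which the reads of each transcript are scaled to all mapped reads of the cell, with 0.01 where no read was counted (69.7% of values). From the deposited values, 0.01 was set to 0, transcripts of a gene were summed, and whole reads were read from the smallest step of each cell, which put 100% of values up to 20 reads within 0.1 of a whole read. Ratios are log2((mean RPM + 1)/(mean RPM + 1)). Thinning to 100000 reads used seed 1. Cells are not replicates, each treatment is 1 sample, and no test between groups was run. No further step against doublets was taken here.

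The members and lists were chosen with earlier results of these data known. Genes were named by rule: the 10 members, the 3 highest and 3 lowest ratios among the list genes (other convertases and trimming enzymes, other granule cargo, granule membrane and ion handling, sorting and granule biogenesis, prohormone folding and translocation) with a mean of 10 RPM or more in either group, without the prohormone and hormone list because *Ins1* and *Gcg* chose the classes, for treatment in β-cells and for class in GNF4877, and the 5 genes most like the members. The ratio step was tested on simulated cells with Poisson counting error only. These held no other variation between the cells of a group, so the test cannot show how single cells move a ratio. All steps ran in Python 3.11.15 (pandas 2.3.3, numpy 2.4.6, scipy 1.17.1), with figures from matplotlib 3.10.9.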

Additional observations from a re-analysis of the deposited data

Results flagged for a closer look

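In groups of 4 to 10 cells, the highest or lowest cell was compared with the others on the log2 scale by Dixon's ratio of its gap to the whole range at 95% confidence. Of 20 sets of values looked at (10 genes in 2 groups of cells), 4 held such a cell, 2 of them the same one. Chance alone gives about 1 in 20 among independent values, but these cells are not replicates, so the rule serves only to point them out. In DMSO α-cells the *Scg2* level of DMSO_94 (1210 RPM) lay far below the other 4, which held 3640 to 4923 RPM. Among the 10 GNF4877 β-cells with 10 RPM or more of *Ccnb1*, GNF4877_78 lay far above the others in *Scg5* (4410 RPM) and *Chga* (3160 RPM), and GNF4877_25 far below in *Pcsk2* (9.84 RPM) while holding 629 RPM of *Pcsk1*. In the cells that entered no comparison, GNF4877_49 had 29600 RPM of *Chgb*, against 3977 RPM in the highest DMSO cell. This cell held 35290 RPM of *Sst*, 1460 RPM of *Ccnb1* and 613 RPM of *Chga*, and was in neither class.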

How the results depend on the processing

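Of 740 ratios of single members recomputed under other settings, 671 stayed within 1.5-fold, 66 moved further and 3 turned after passing 2-fold, all 3 for *Cpe* by *Ccnb1*: -0.44 with *Ins1* and *Gcg* thresholds of 100 RPM, and -0.10 without GNF4877_78, which was also the 1 cell whose removal lowered it most. The members' median moved in 3 of 74 cases: in α-cells for GNF4877 over DMSO to -1.14 by mean log values and -1.03 by medians, and for *Ccnb1* to -0.33 at 100 RPM. At 10000 RPM, DMSO β-cells with a read were 100% for *Pcsk1* and 96.0% for *Pcsk1n*. After thinning they were 57.4% (*Pcsk1n*, DMSO β-cells), 14% (*Pcsk1n*, GNF4877 β-cells), 71.9% (*Chga*, GNF4877 β-cells), 89.5% (*Chgb*, GNF4877 β-cells), 20% (*Pcsk1*, DMSO α-cells) and 38.9% (*Pcsk1n*, GNF4877 α-cells), which the smaller number of reads lowers by construction. For the other moves the cause was not tested. The other 112 shares of cells stayed within their intervals. Many were at 100%, and for 5 DMSO α-cells such an interval is 47.8% to 100%, so this says little about stability. The 5 shares of all genes past 2-fold stayed within 1.5-fold without a filter, but other settings moved such shares further. In β-cells 11.3% of genes were higher by treatment with 1 RPM added, 3.4% with 10 RPM added and 1.83% by mean log values. Signs turned least between classes (1 of 140 values in DMSO, 2 of 150 in GNF4877) and more often for *Ccnb1* (15 of 160), treatment in β-cells (12 of 150) and treatment in α-cells (7 of 140). No paired analysis was possible because there is 1 sample per treatment. The 100 RPM threshold left 3 DMSO α-cells, and the 5 at 1000 RPM limit every value that uses DMSO α-cells. Leaving out cells with few listed reads or GNF4877_78 and scaling to listed reads were chosen after seeing the data.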

Other observations

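Cells in neither class show the members in other islet cells, as single values. Of the cells with high *Ppy* and little *Ins1* or *Gcg*, DMSO_29 (45020 RPM of *Ppy*) held 7.11 RPM of *Pcsk1*, 663 RPM of *Pcsk2* and 499 RPM of *Chgb*, but also 1496 RPM of the mesenchymal gene *Col1a1*. GNF4877_33, GNF4877_62 and GNF4877_73 (30110, 59530 and 70420 RPM of *Ppy*) had no *Pcsk1* read and held 463, 338 and 1338 RPM of *Pcsk2*. All 4 resembled the α-cells in having *Pcsk2* with little or no *Pcsk1*. GNF4877_49, with 35290 RPM of *Sst* and 5450 RPM of *Iapp*, held 33.6 RPM of *Pcsk1* and 1054 RPM of *Pcsk2*. The cells DMSO_83 and GNF4877_15, which held markers of non-endocrine cells, were nearly without the members, as single values. In DMSO_83, with 14230 RPM of the acinar gene *Cpa1*, no member exceeded 32.9 RPM, and in GNF4877_15, with 5803 RPM of *Col1a1* and 608 RPM of *Ccnb1*, none exceeded 5.97 RPM. The members' summed level had a median of 13200 RPM in DMSO β-cells and 11040 RPM in GNF4877 β-cells. These cells were named after their values were seen.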
